A study of Homo sapiens with 2 samples.

Results

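The expression of 10 genes of the circadian clock was followed in HEL cells, a human erythroleukemia line, after treatment with L1, a derivative of diindolylmethane. They were NR1D1, NR1D2, PER1, PER2, PER3, CRY1, CRY2, CLOCK, DBP and BHLHE40, which are 10 of the 61806 Ensembl genes in the count table. The genes were matched by symbol, and all 10 were listed in the FPKM table of each library. The list was chosen by a measured value, the lower count of NR1D2 with L1 in these same libraries, so the NR1D2 values are a description and support nothing. The 9 other genes belong to the same clock and were listed with it. The label clock genes rests on their known roles, since no rhythm or phase can be read from a single time point.

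HEL cells labelled WT received L1 at 1 µM or 0.5% DMSO, and RNA was collected after 24 h. Whether the L1 culture also held DMSO is not stated in the labels. mRNA was captured on beads and sequenced from 1 library per condition, with 32556872 counts for DMSO and 27135647 for L1. With 1 library per condition no test was run, the spread between cultures was not measured, and no difference below has a replicate check. All 7 markers of the HEL line that were examined, among them GATA1 and ITGA2B, had at least 100 counts. Their log2 ratios of L1 over DMSO ran from -0.50 for TAL1 to 1.78 for the fetal globin gene HBG1. The other fetal globin gene, HBG2, had 20283 counts under DMSO against 20372 under L1 and a log2 ratio of 0.22. Of 9 markers of other cell types, 6 were at 0 in both libraries, among them CD3D and CD3E of T cells and EPCAM and KRT5 of epithelia, and the 9 together summed to 124 counts under DMSO against 82 under L1. Most of that sum was the B cell marker CD79A, with 113 and 60 counts, FPKM of 2.64 and 1.63, and a log2 ratio of -0.70 (95% interval -1.18 to -0.24). Its part in the results below was not tested.

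The clock is a feedback loop of transcription. CLOCK with its partner BMAL1 binds E-box sequences and activates the PER, CRY and NR1D genes. PER and CRY proteins then repress CLOCK and BMAL1, while the nuclear receptors REV-ERBα (NR1D1) and REV-ERBβ (NR1D2) bind heme and repress the BMAL1 gene. DBP activates genes that carry a D-box, and BHLHE40, also called DEC1, competes for E-boxes.

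The sequence upstream of a start site is shown for NR1D2 and CRY2, the members farthest from equal levels, and for NR1D1, the paralogue of NR1D2. Each is the part of the RefSeq window before the start (GRCh38.p14) that lies outside every exon of GENCODE release 29, given 5′ to 3′ on the strand of the gene. Capitals mark an E-box (CACGTG), an E′-box (CACGTT, or AACGTG on the other strand) or a D-box (TTATGTAA or TTACGTAA, or TTACATAA on the other strand). The NR1D2 stretch is chr3:23945871-23946120 on the plus strand, at the more downstream of its RefSeq start sites. The NR1D1 stretch is chr17:40100726-40100839 on the minus strand, and the CRY2 stretch is chr11:45847282-45847405 on the plus strand.
NR1D2: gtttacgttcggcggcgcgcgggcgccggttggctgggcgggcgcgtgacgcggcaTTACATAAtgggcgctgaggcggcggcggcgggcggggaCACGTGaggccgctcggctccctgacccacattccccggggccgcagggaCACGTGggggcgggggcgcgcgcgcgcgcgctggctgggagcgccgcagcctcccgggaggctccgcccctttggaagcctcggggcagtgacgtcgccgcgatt
NR1D1: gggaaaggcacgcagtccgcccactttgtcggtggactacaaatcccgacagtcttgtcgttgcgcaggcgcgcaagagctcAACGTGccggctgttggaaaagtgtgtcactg
CRY2: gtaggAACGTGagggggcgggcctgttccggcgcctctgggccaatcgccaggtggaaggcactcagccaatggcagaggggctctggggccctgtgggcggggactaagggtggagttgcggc

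The NR1D2 stretch held 2 E-boxes, 155 and 105 bases before the start, and a D-box 194 bases before it. NR1D1 held an E′-box 168 bases before the start, and CRY2 held an E′-box 188 bases before the more downstream of its start sites. RefSeq gave 14 windows of 300 bases for the 10 genes, some of them overlapping. The more upstream window of NR1D2 and that of CRY2, not shown, held no E-box, E′-box or D-box. An E-box was in 3 of these windows (NR1D2, PER1 and BHLHE40), or 21.4%, against 7.26% of all 35116 windows. E′-boxes were in 5 windows, of CLOCK, CRY1, CRY2, NR1D1 and PER2, against 5.34% of all windows. A D-box was in 3 windows, of NR1D2, PER2 and PER3, against 1.01%. The nuclear receptor element AGGTCA was in 3 windows of CRY2 and PER1, against 13.8% of all windows. No window of the 10 genes held the cyclic AMP response element TGACGTCA, which was in 1.85% of all windows. Both strands were searched, no motif contains another, and a match of letters is not evidence of binding.

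NR1D2, which encodes REV-ERBβ, was the lowest of the 10 genes relative to DMSO. The NR1D2 gene (ENSG00000174738, chromosome 3 from 23945260 to 23980618) had 515 counts under DMSO against 192 under L1, and its deposited FPKM, a level per length of the gene, was 2.80 and 1.21. After scaling by edgeR's TMM method the log2 ratio of L1 over DMSO was -1.21, or 0.432-fold. The exact 95% counting interval, from the split of the counts between both libraries, ran from -1.46 to -0.97, so it included values under 2-fold. Intervals here and below cover counting error only. In a bulk library, fewer cells that express a gene and less RNA per cell cannot be told apart.

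NR1D1, which encodes REV-ERBα, was also lower with L1. NR1D1 (ENSG00000126368, chromosome 17 from 40092787 to 40100725) had 378 counts under DMSO against 245 under L1, with FPKM of 4.52 and 3.40. Its log2 ratio was -0.41 (95% interval -0.65 to -0.18). NR1D2 made up 57.7% of the counts of both receptors in DMSO and 43.9% in L1, a description that includes the value by which the list was chosen. Counts are not scaled for the unlike lengths of the 2 genes. By FPKM the ratio of NR1D2 to NR1D1 was 0.62 in DMSO and 0.36 in L1, so NR1D1 was the higher in both libraries.

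Both cryptochromes were higher with L1, CRY2 by more than CRY1. CRY2, a repressor of CLOCK and BMAL1 (ENSG00000121671, chromosome 11 from 45847118 to 45883248), had 286 counts under DMSO against 526 under L1, with FPKM of 1.45 and 3.09. Its log2 ratio of 1.09, or 2.13-fold, was the highest of the 10, and its interval from 0.88 to 1.30 also included values under 2-fold. CRY1, the paralogue of CRY2 (ENSG00000008405, chromosome 12 from 106991364 to 107093829), had 1356 counts under DMSO against 1406 under L1, with FPKM of 8.92 and 10.7, a log2 ratio of 0.27 (95% interval 0.16 to 0.37). CRY1 was the more abundant cryptochrome in both libraries. The share of CRY2 among the counts of both genes was 17.4% in DMSO and 27.2% in L1, and the ratio of CRY2 to CRY1 was higher with L1 by 0.83 on the log2 scale (95% interval 0.59 to 1.07).

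**Figure D1:**
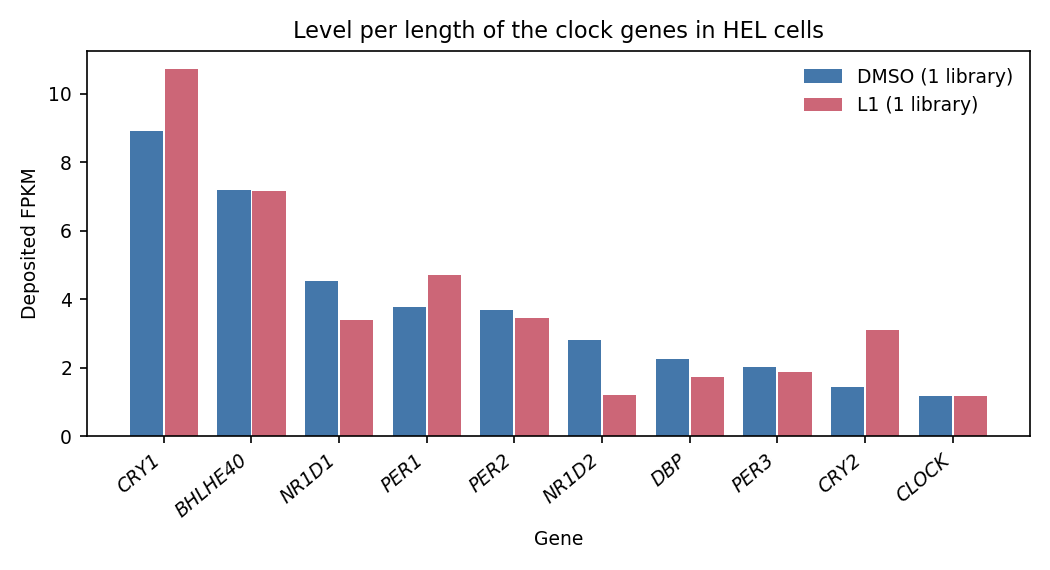
Deposited FPKM (vertical axis) of the 10 clock genes in the DMSO and L1 libraries, 1 bar per library, ordered by the DMSO value. CRY1 is the highest in each library, NR1D2 goes from 2.80 to 1.21 and CRY2 from 1.45 to 3.09.

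The period genes, whose proteins pair with the cryptochromes, had small ratios. PER1 (ENSG00000179094, chromosome 17 from 8140472 to 8156506) had 838 counts under DMSO against 906 under L1, FPKM of 3.76 and 4.72, and a log2 ratio of 0.33 (95% interval 0.19 to 0.46). PER2 (ENSG00000132326, chromosome 2 from 238244038 to 238290102) had 807 and 651 counts, FPKM of 3.69 and 3.45, and a log2 ratio of -0.10 (95% interval -0.25 to 0.05). PER3 (ENSG00000049246, chromosome 1 from 7784320 to 7845177) had 519 and 418 counts, FPKM of 2.01 and 1.88, and a log2 ratio of -0.10 (95% interval -0.29 to 0.09). The intervals of PER2 and PER3 included 0 and that of PER1 did not. The ratio of PER1 to PER2 was higher with L1 by 0.42 (95% interval 0.22 to 0.63) on the log2 scale, while the ratio of PER3 to PER2 differed by -0.002 (95% interval -0.25 to 0.24). Summed over the 3 genes, the log2 ratio was 0.08 (95% interval -0.01 to 0.17).

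CLOCK, the activator of the loop (ENSG00000134852, chromosome 4 from 55427903 to 55547138), had 428 counts under DMSO against 368 under L1, FPKM of 1.17 and 1.16, and a log2 ratio of -0.005 (95% interval -0.21 to 0.20). Its partner BMAL1, listed as ARNTL here, had 317 and 273 counts and a log2 ratio of -0.003 (95% interval -0.24 to 0.24). BHLHE40, the E-box repressor (ENSG00000134107, chromosome 3 from 4979116 to 4985323), had 804 and 690 counts, FPKM of 7.19 and 7.16, and a log2 ratio of -0.008 (95% interval -0.16 to 0.14). These 3 genes were at nearly equal levels, and the widest of their intervals ran from -0.24 to 0.24. DBP, the D-box activator (ENSG00000105516, chromosome 19 from 48630030 to 48637438), had 463 and 307 counts, FPKM of 2.25 and 1.73, and a log2 ratio of -0.38 (95% interval -0.59 to -0.17). DBP thus lay beside NR1D1 in the order of ratios, and their intervals overlapped.

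**Figure D2:**
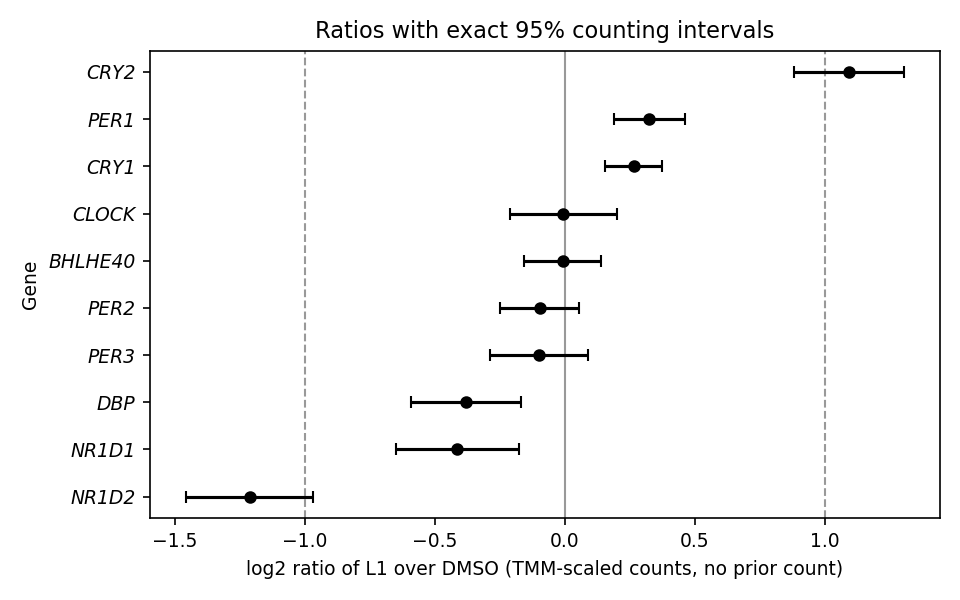
Log2 ratio of L1 over DMSO of each clock gene (points) with its exact 95% counting interval (bars), dashed lines at 2-fold. NR1D2 at -1.21 and CRY2 at 1.09 lie apart from the other 8 genes, which range from -0.41 to 0.33.

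Of the 10 genes, 3 had a counting interval above 0 (CRY2, PER1 and CRY1), 3 had one below 0 (NR1D2, NR1D1 and DBP), and 4 had one that included 0. For counts over all genes a prior count of 2 was added and genes with at least 10 counts in 1 library were kept, which held for all 10. On that scale 1 of the 10 (CRY2) was at least 2-fold higher, against 7.12% of the 18123 genes kept, and 1 (NR1D2, the reason for the list) was at least 2-fold lower, against 4.83%. In either direction the share of all genes was 12.0%. Among the 12365 genes with at least 100 counts in the higher library, which again include all 10, the shares were 3.13% higher, 2.92% lower and 6.05% in either direction. The 1 gene of the 9 others than NR1D2 that passed 2-fold is too few to read against these shares. The median log2 ratio was -0.05 over the 10 genes and -0.004 over all genes kept, for which the lowest and highest 5% began at -0.98 and 1.25.

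**Figure D3:**
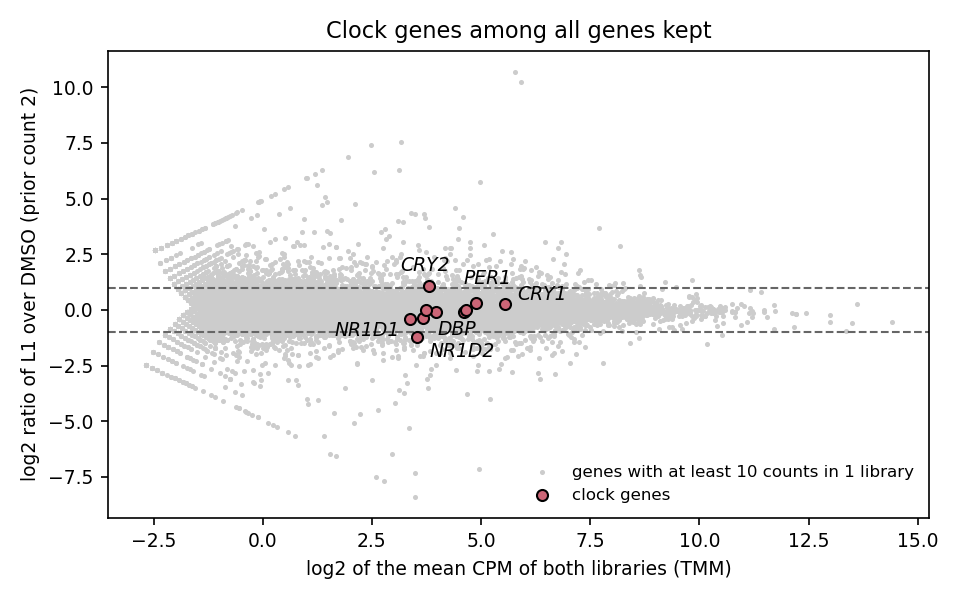
Log2 ratio of L1 over DMSO with a prior count of 2 (vertical axis) against the log2 of the mean CPM of both libraries, with the 18123 genes kept in grey and the 10 clock genes in red. The clock genes lie within the cloud of genes of like abundance, with CRY2 just above the upper dashed 2-fold line and NR1D2 just below the lower one.

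By FPKM, the order in DMSO was CRY1, BHLHE40, NR1D1, PER1, PER2, NR1D2, DBP, PER3, CRY2 and CLOCK, from 8.92 to 1.17. The 95% Poisson intervals of neighbours overlapped for PER1 and PER2 and for DBP and PER3. In L1 the order was CRY1, BHLHE40, PER1, PER2, NR1D1, CRY2, PER3, DBP, NR1D2 and CLOCK, from 10.7 to 1.16. There the intervals overlapped for PER2 and NR1D1, NR1D1 and CRY2, PER3 and DBP, and NR1D2 and CLOCK. NR1D2 thus moved from place 6 to place 9, and CRY2 from place 9 to place 6. All 10 were modest in level, between percentile 16.6 and percentile 69.6 of the 13924 genes with an FPKM value. The order depends on the length used for each gene. The FPKM of DBP corresponds to 6.44 kb, whereas its longest coding transcript in GENCODE release 29 has 2229 bases, and per base of that transcript DBP stood at place 3 in DMSO and place 4 in L1.

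Reads of other genes could enter some of these counts, because the handling of strand and of shared reads is not given in the sources used here. Neither NR1D2 nor CRY2 shares an exonic base with another gene of GENCODE release 29. No stretch of 31 bases in a transcript of NR1D2 recurs in a transcript of another gene, while 1.67% of those of CRY2 do. Only the strand of each transcript was searched, so sequence shared with the opposite strand is not counted. NR1D1 shares 263 exonic bases, 9.49% of its exons, with THRA, a thyroid hormone receptor gene on the opposite strand, which had 971 counts under DMSO against 602 under L1. The log2 ratio of THRA was -0.48 (95% interval -0.63 to -0.33). DBP shares 661 exonic bases (10.1%) with SPHK2 on the opposite strand, which had 641 and 692 counts and a log2 ratio of 0.32 (95% interval 0.17 to 0.48). Summed with SPHK2, DBP would be at 0.07. That sum adds every read of SPHK2 and not only those in the shared bases, so it does not show what the shared bases contribute. How many reads lie in the bases that DBP shares with SPHK2, or NR1D1 with THRA, was not tested. PER3 shares 868 exonic bases with UTS2 (40 and 50 counts) and 482 with the antisense gene Z98884.1 (24 and 5 counts), both few beside its own 519 and 418. CLOCK shares 76 bases with TMEM165 (3537 and 2526 counts), and PER2 shares 188 with AC012485.1, which was at 0 in both libraries. The genes that overlap exons of PER1 (MIR6883 and AC129492.3), CRY1 (AC078929.1) and BHLHE40 (BHLHE40-AS1) had at most 37 counts in a library, and AC024243.1, which shares 27 bases with CLOCK, had 0 and 8.

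The chromosomal neighbours of each gene were set beside it, a comparison chosen with the data in view. They were the protein-coding genes within 250 kb that had at least 100 counts in the higher library. For NR1D2, itself chosen for its lower count, 2 of 3 neighbours were at least 2-fold lower, where 2.92% of all genes with at least 100 counts were. NKIRAS1, an inhibitor of NF-κB signalling that starts within NR1D2 on the opposite strand and overlaps it by 1332 bases without a shared exonic base, had 343 counts under DMSO against 108 under L1, a log2 ratio of -1.45 (95% interval -1.78 to -1.14). RPL15, a ribosomal protein gene 20886 bases away, had 54701 counts under DMSO against 16184 under L1, and its log2 ratio was -1.54. UBE2E1, a ubiquitin-conjugating enzyme, had a log2 ratio of -0.02. The 3 neighbours of CRY2 (SLC35C1, PEX16 and PHF21A) had log2 ratios from -0.04 to 0.06. No neighbour of the other 8 genes was 2-fold lower, and RIC8B beside CRY1 (log2 ratio 1.16) was 2-fold higher. Overlap of the neighbours with each other was not examined, and the strand handling is not given. Reads of RPL15 could therefore have been counted for NKIRAS1, and these 2 neighbours may not be separate observations. What the lower counts of NR1D2, NKIRAS1 and RPL15 share was not tested.

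**Figure D4:**
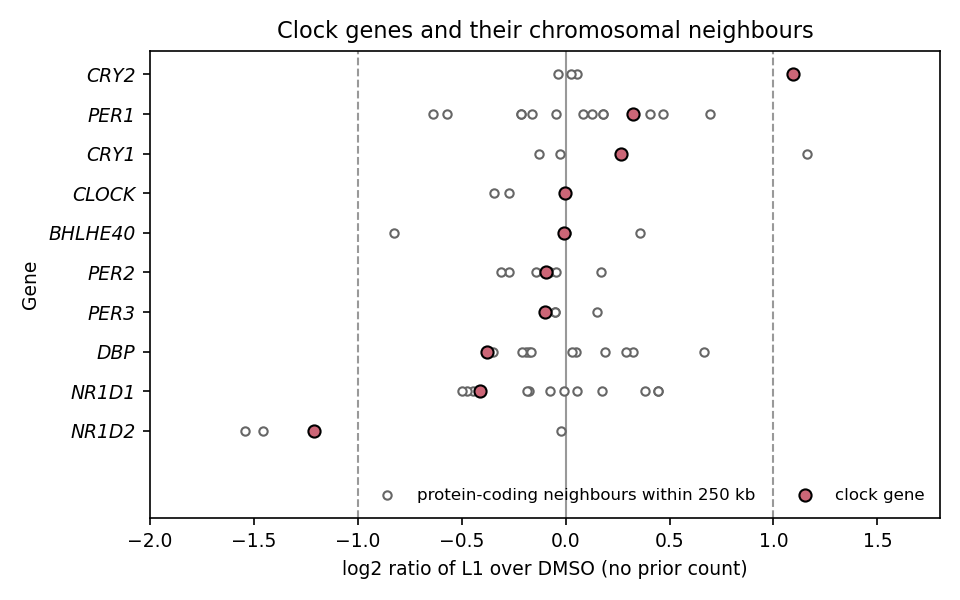
Log2 ratio of L1 over DMSO without a prior count for each clock gene (red) and its protein-coding neighbours within 250 kb (open circles), dashed lines at 2-fold. NR1D2 at -1.21 lies beside neighbours at -1.54 and -1.45, while the neighbours of CRY2 lie from -0.04 to 0.06.

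By CPM in both libraries, the genes with a symbol nearest to NR1D2 were SPICE1 (504 counts under DMSO against 184 under L1), GDPD1 (530 and 202) and KMT5C (503 and 212). Their log2 ratios were -1.24, -1.18 and -1.03, near that of NR1D2 because the genes were picked by these same levels. Likeness was measured as the distance between the log2 values of 2 libraries, which for SPICE1 was 0.07, so it describes these libraries only.

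Other genes of the loop were counted from a list of 12 transcription factors and partners. Of these, 7 passed the minimum count, with 2 above 0 and 5 below 0 and a median log2 ratio of -0.09, and 6 of the 7 intervals included 0. The most counted were TIMELESS, a partner of the replication fork and the clock, with 3933 counts under DMSO against 3155 under L1 (log2 ratio -0.10, 95% interval -0.17 to -0.04), and ARNTL2, a relative of BMAL1, with 500 and 405 (log2 ratio -0.09, 95% interval -0.28 to 0.10). HLF, a D-box factor, was the only gene of the 7 that passed 2-fold, where 12.0% of all genes kept did, on 4 counts under DMSO against 10 under L1, with an interval from -0.26 to 3.66. Activators that compete with the REV-ERB receptors were scarcely detected, with RORA at 0 and 5 counts and RORB at 0 in both libraries. NPAS2, which can replace CLOCK, was also at 0 in both. A count of 0 allows up to 3 counts in a library.

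The corepressor that the REV-ERB receptors recruit was detected in full, with 6 of 6 genes kept and none past 2-fold, where 12.0% of all genes kept were. Their median log2 ratio was -0.15. NCOR1, the corepressor scaffold, had 3882 counts under DMSO against 3290 under L1, and its log2 ratio was -0.03 (95% interval -0.09 to 0.04). Among 13 genes of the kinases and ubiquitin enzymes that set the lifetime of PER and CRY proteins, 12 were matched and kept. Of the 12, 8 were above 0 and 4 below 0, with a median of 0.21. None was past 2-fold, against the same 12.0%, or 6.05% of genes with at least 100 counts, which all 12 had. USP7, a deubiquitinase, had 5502 and 6576 counts (log2 ratio 0.47, 95% interval 0.42 to 0.52), and CUL1, the scaffold of SCF ubiquitin ligases, had 3613 and 4017 (log2 ratio 0.37, 95% interval 0.30 to 0.43). USP2, a deubiquitinase under clock control, was the lowest of these, with 850 counts under DMSO against 441 under L1 (log2 ratio -0.73, 95% interval -0.90 to -0.57). Nothing particular to these lists is read from their medians.

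**Figure D5:**
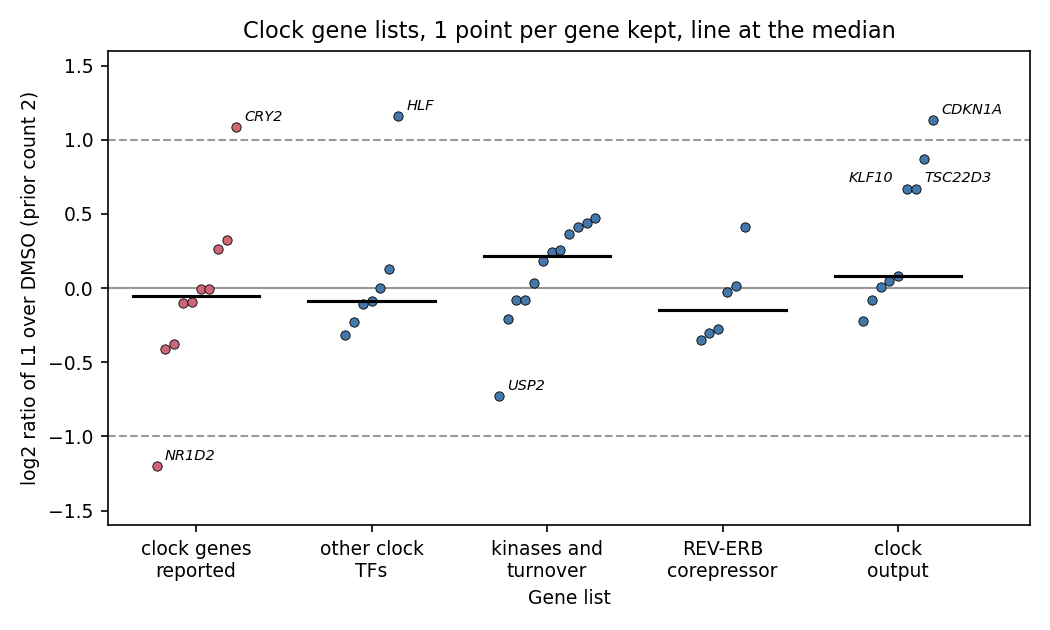
Log2 ratio of L1 over DMSO with a prior count of 2, 1 point per gene kept, for the 10 clock genes and 4 further lists, with the median as a line and dashed lines at 2-fold. Past 2-fold lie NR1D2 below, and CRY2, HLF and CDKN1A above.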

How the data were processed

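The authors aligned reads with HISAT2 2.1.0, and the submitters' processing notes also name fastp, StringTie and hg38. The authors deposited raw read counts of 61806 genes without normalization. The deposited FPKM values cover 13924 genes, and their scaling between the libraries equals that of TMM (1.16). The annotation, the counting program and the strand setting are not given in the sources used here. From the counts, TMM effective library sizes were computed with edgeR 4.0.16 in R 4.3.3, with DESeq2 1.42.0 for an alternative. Ratios and Clopper-Pearson or Poisson intervals used scipy 1.17.1 in Python 3.11.15, and ratios between 2 genes used the exact conditional odds ratio. Code was tested on simulated data. Exons and transcripts came from GENCODE release 29, which holds 58254 of the genes.

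The members and lists were chosen with earlier results of these data known. Named genes were all members, genes whose exons overlap them, the 3 genes nearest to NR1D2, and in each list those past 2-fold and the 2 with the most counts. ARNTL, NPAS2, RORA, RORB, USP2, TSC22D3, PDK4, CD79A, HBG2, the neighbours and the paired ratios were added after their values were seen. FBXL21 was not matched, and some genes that the rule names are not reported here. Alternatives were other scalings, FPKM, prior counts, minimum counts, thresholds and summed overlapping genes, and the length in the order of levels was added after seeing the data.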

Additional observations from a re-analysis of the deposited data

How the results depend on the processing

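No paired analysis was possible because only 1 library per condition was sequenced. Over total count, DESeq2 and upper quartile scaling, FPKM and a prior count of 2, the log2 ratio of NR1D2 ran from -1.24 to -1.16 and that of CRY2 from 1.06 to 1.14. The FPKM ratios equal the main ratios because both share 1 scaling, so they are no separate check. With log2(FPKM + 1), which shrinks low levels, NR1D2 was at -0.78 and CRY2 at 0.74, both under 2-fold. Summing genes whose exons overlap moved CLOCK to -0.24 and turned DBP to 0.069, since TMEM165 and SPHK2 add more counts than the members hold. The numbers of genes at least 2-fold higher and lower, 1290 and 876, moved to 3544 and 1811 with no minimum count, 694 and 491 where both libraries needed 10 counts, 387 and 361 where the higher library needed 100, 2506 and 2065 at 1.5-fold, and 547 and 350 with the whole 95% interval past 2-fold. The medians of the lists moved by less than the typical counting interval of their genes under the scalings, prior counts and minimum counts run. With at least 100 counts no loop gene passed 2-fold. Per base of the longest coding transcript, 9 of 20 places in the order of levels moved. Depth limits HLF and RORA most, and culture variation was not measured.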

Other observations

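Genes that the clock is known to drive in many tissues were examined as a further list. Of a list of 10, 9 were kept, with 7 above 0 and 2 below 0, a median log2 ratio of 0.08 and 5 intervals that included 0. Past 2-fold was 1 of the 9, where 12.0% of all genes kept were. That gene was CDKN1A, which encodes the cell cycle inhibitor p21 and had 140 counts under DMSO against 267 under L1 (log2 ratio 1.14, 95% interval 0.84 to 1.45). KLF10, a transcription factor also known as an early response gene of TGF-β, had 1300 counts under DMSO against 1786 under L1 (log2 ratio 0.67, 95% interval 0.57 to 0.78). TSC22D3, a glucocorticoid target, had 913 and 1255 counts and the same log2 ratio of 0.67. NAMPT, the rate-limiting enzyme of NAD salvage, had 1321 and 1203 counts and a log2 ratio of 0.08 (95% interval -0.04 to 0.19). PDK4, a kinase that restrains pyruvate dehydrogenase, was at 0 in both libraries. CDKN1A is also controlled outside the clock.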
